A study of Drosophila melanogaster with 40 samples.

Results

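The comparison described here set a later window of a time course of Drosophila S2 cells at 25°C, the 5 libraries taken at CT39, CT42, CT45, CT48 and CT51, against the earlier window, the 5 libraries taken at CT24, CT27, CT30, CT33 and CT36 (CT, circadian time in hours). These are 10 of the 40 libraries of the series, and the loci examined were the 6988 of 15863 with at least 0.9 FPKM in every one of the 10. FPKM is the number of reads of a transcript divided by its length and by the mapped reads of its library. S2 cells are an established line from fly embryos with haemocyte-like character. Both windows came from the same culture regime. The cells grew in Schneider medium, had been entrained by temperature cycles, received a last change of medium and were then held at a constant 25°C, and polyA RNA was sequenced from 1 library per time point. Since no time point had a replicate, the 5 consecutive time points of each window stood in for replicates, and p-values measure the difference between windows against the spread of time points within them. The windows differ both in the hours since the medium change and in the hours of the day they cover. Across the full windows these cannot be told apart. Only CT24 and CT27 have a library at the same hour 1 day later, CT48 and CT51. In a bulk culture, fewer cells of a kind and less RNA per cell cannot be told apart either.

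S2 cells take glucose to pyruvate by glycolysis, and lactate dehydrogenase reduces pyruvate to lactate, whereas the mitochondria oxidise it in the citric acid cycle and the respiratory chain. Insulin and TOR signalling couple the supply of nutrients to ribosome production and division. Thor, the fly 4E-BP, holds back cap-dependent translation when this signalling is low, and the transcription factor ATF4, encoded by crc, raises amino acid synthesis and transport when amino acids are short. The core clock genes per, tim and Clk are known to be silent in this line.

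Summed over loci, a library held 978685 to 1082970 FPKM, and the 10 highest loci held 11.2% to 12.6% of it. Depth relative to the median of the 10 libraries, estimated from loci of few reads, lay between 0.589 at CT39 and 1.59 at CT48. Raw counts were not used here, so the counting error of single values is unknown. Of 14 haemocyte and S2 markers 9 passed the filter. The sum of all 14 lay at 983 to 1093 FPKM at CT39 to CT51 and at 951 to 1087 FPKM at CT24 to CT36. Of the 9 tested, 2 were called higher and 2 lower, with log2 differences from -0.38 to 0.44. Hml, NimC1, Sr-CI, eater and He did not pass, with highest values of 0.037, 0.039, 0.088, 0.71 and 1.9 FPKM. No listed marker of muscle, fat body or gut passed. Of the neuronal, glial and germline lists, elav, which was not called at a log2 difference of -0.02, and brp, moody and zpg did. Of these brp had 0.61 ± 0.12, moody 0.42 ± 0.083 and zpg -0.28 ± 0.072 as log2 differences, at 5.65, 21.8 and 48.3 FPKM at CT39 to CT51. The part of these transcripts in the results was not tested.

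Of the 6988 loci, 2785 differed between the windows at an adjusted p under 0.05 by limma on log2(FPKM + 1), which is 39.9%. Higher levels at CT39 to CT51 were found for 1204 loci (17.2%) and lower levels for 1581 (22.6%). The differences were mostly small, with a median size of 0.23 on the log2 scale and quartiles of 0.17 and 0.32 among the called loci. Only 113 loci were higher by at least 1.5-fold (1.62%) and 17 lower by as much (0.243%), so that the larger changes went mostly upwards. The ranges of the 2 windows did not overlap in 650 loci that were higher (9.3%) and 882 that were lower (12.6%). The median difference of all loci was -0.02, which is the level against which the gene groups are read here. Counts within a gene list are to be read against the 17.2% higher and 22.6% lower over all loci.

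Most called loci also drifted the same way within both windows. Of the 1204 loci called higher, 91.4% also had a rising trend within CT39 to CT51 and 88.4% within CT24 to CT36, and 59.3% had their highest value at CT51. Of the 1581 called lower, 90.5% fell within CT39 to CT51 and 93.2% within CT24 to CT36, and 70.6% had their highest value at CT24. The loci were called on these same windows, so the window that holds their highest value follows in part from the call. These shares were not taken for the loci not called. When a straight line in time was added to the model, no locus passed, with 377 loci at an unadjusted p under 0.05. With only the 3 libraries on each side of the boundary, 1 locus passed, with 1382 at an unadjusted p under 0.05. Time and window rise together, so the first fit can hardly separate a step from a drift, and the second rests on fewer libraries. For most loci the calls therefore describe a difference in level between the windows that cannot be told apart from a steady drift. Without the library at CT24, 1841 loci were called, 1003 of them lower, and without CT48 1043 were lower.

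**Figure D1:**
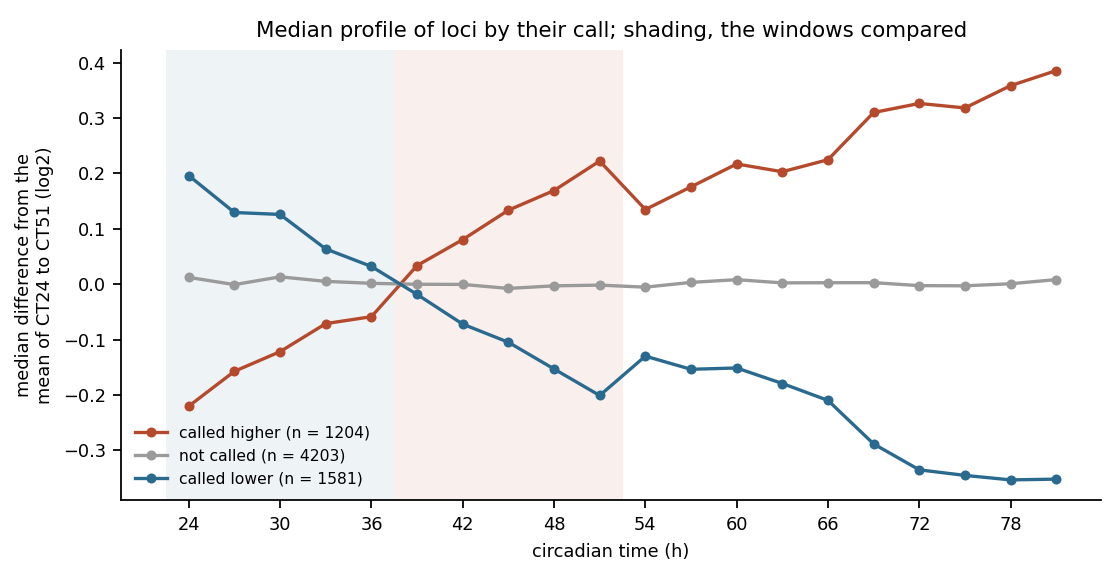
Median difference of log2(FPKM + 1) from the mean of the 10 libraries compared (y axis) against circadian time (x axis), for 1204 loci called higher, 4203 not called and 1581 called lower, over all 20 libraries at 25°C. The loci called higher climb from -0.22 at CT24 to 0.22 at CT51, and those called lower run from 0.20 at CT24 to -0.20 at CT51. Both turn back at CT54, to 0.13 and -0.13, and reach their CT51 level again only at CT66.

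The transcript with the largest difference was Ldh, lactate dehydrogenase (dm3, chromosome 3L, 6252205 to 6255794). Ldh had 131, 166, 263, 329 and 415 FPKM at CT39, CT42, CT45, CT48 and CT51, against 5.43, 28.6, 27.5, 74.9 and 66.9 FPKM at CT24, CT27, CT30, CT33 and CT36. The windows did not overlap, and each held a climb of its own, steepest in proportion between CT24 and CT27. The means were 261 ± 116 FPKM at CT39 to CT51 and 40.7 ± 29.3 FPKM at CT24 to CT36 (SD, n = 5 time points each), a log2 difference of 2.96 ± 0.60 (SE) with an adjusted p = 0.00646. Sirup, which encodes an assembly factor of mitochondrial complex II (dm3, chromosome 2L, 7998869 to 8004286), followed the same course at a higher level. Sirup had 852, 1571, 2369, 2688 and 3342 FPKM at CT39, CT42, CT45, CT48 and CT51, against 102, 184, 187, 738 and 791 FPKM at CT24, CT27, CT30, CT33 and CT36, a log2 difference of 2.75 ± 0.58 (SE) with an adjusted p = 0.00734. Its values at CT33 and CT36 were already several times those of CT24 to CT30, so that the change began inside the earlier window. CG9521, which encodes a predicted oxidoreductase, had 11.5, 20.1, 27.6, 35.5 and 46.4 FPKM over CT39 to CT51, against 2.16, 3.40, 3.74, 9.89 and 9.77 FPKM over CT24 to CT36, a log2 difference of 2.14 ± 0.42 (SE) with an adjusted p = 0.00617.

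The 11 glycolytic enzymes tested were all called higher at CT39 to CT51. Their median log2 difference was 0.45 and they ranged from 0.16 for the hexokinase Hex-A to 1.16 for Pfk, and in 10 of the 11 the windows did not overlap. The hexokinase isoform Hex-C stayed under the filter with at most 0.695 FPKM. Pfk, phosphofructokinase, which catalyses the committed step of the pathway, had 38.6, 44.5, 53.1, 68.2 and 73.8 FPKM at CT39, CT42, CT45, CT48 and CT51, against 15.9, 23.7, 24.1, 28.3 and 29.1 FPKM at CT24, CT27, CT30, CT33 and CT36. Every value of the later window lay above every value of the earlier one, a log2 difference of 1.16 ± 0.20 (SE) with an adjusted p = 0.00565. Pgi, which isomerises glucose 6-phosphate, averaged 105 ± 21.5 FPKM at CT39 to CT51 and 60.4 ± 8.96 FPKM at CT24 to CT36. Tpi, triose phosphate isomerase, averaged 402 ± 71.5 FPKM at CT39 to CT51 and 238 ± 31.1 FPKM at CT24 to CT36. Gapdh2, which catalyses the first oxidation, averaged 672 ± 99.0 FPKM at CT39 to CT51 and 435 ± 55.9 FPKM at CT24 to CT36. Their log2 differences were 0.78 ± 0.14, 0.74 ± 0.13 and 0.62 ± 0.11 (SE). As a group the enzymes moved up in each of the 5 intervals from CT36 to CT51, at 9 to 11 of 11 enzymes per interval, and all 11 turned down between CT51 and CT54.

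Of 7 tested genes of glycogen and trehalose metabolism 6 were called higher and none lower, at a median of 0.56. Pgm1, phosphoglucomutase, which links glucose 6-phosphate to glycogen, had 32.7, 40.4, 47.2, 57.7 and 62.5 FPKM over CT39 to CT51, against 18.4, 22.7, 25.0, 27.9 and 25.9 FPKM over CT24 to CT36, a log2 difference of 0.95 ± 0.17 (SE) with an adjusted p = 0.00565. The branching enzyme AGBE, glycogen phosphorylase Glyp and glycogen synthase Glys changed by 0.70 ± 0.13, 0.61 ± 0.12 and 0.56 ± 0.11, so enzymes of both synthesis and breakdown moved up. Gbs-76A, a glycogen-targeting subunit of protein phosphatase 1, rose by 1.18 ± 0.23 and averaged 8.97 ± 3.16 FPKM at CT39 to CT51 and 3.31 ± 1.03 FPKM at CT24 to CT36. Of the 8 genes listed for lactate and hypoxia, 5 were called higher and 2 lower. Beside Ldh, sima, the fly HIF-alpha, rose by 0.37 ± 0.088, scyl, an inhibitor of TOR signalling, by 0.43 ± 0.13, and Vhl, which marks HIF-alpha for degradation, by 0.29 ± 0.083. Vhl lost its call without CT48, and scyl without any 1 of CT24, CT27, CT48 and CT51. The count of 5 higher genes came to 3 without CT24, CT27 or CT51 and to 2 without CT48. The pentose phosphate pathway had 1 of 6 genes called higher, at a median of 0.10, against 17.2% higher over all loci.

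**Figure D2:**
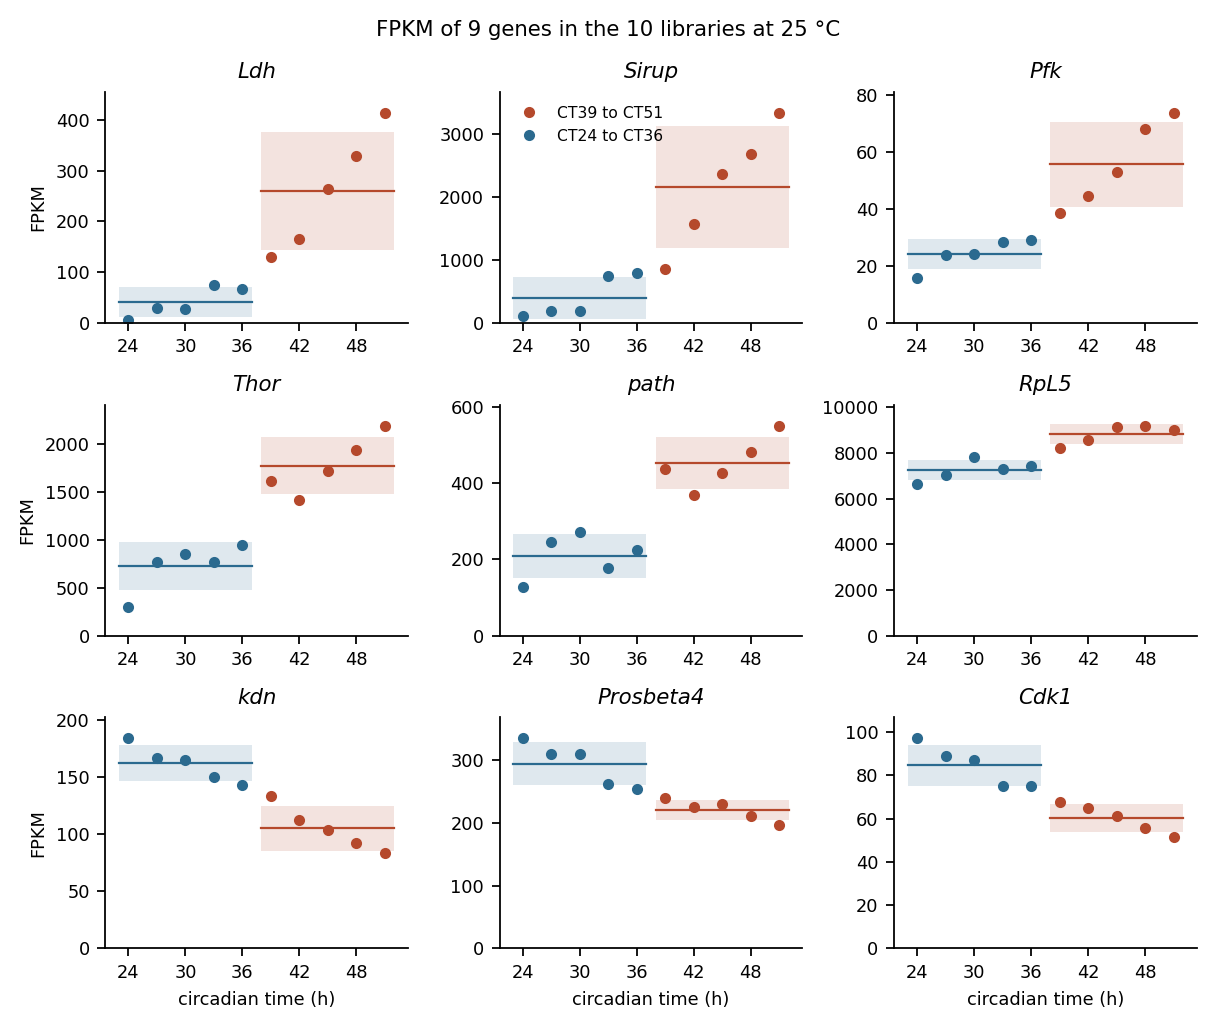
FPKM (y axis, from 0) against circadian time (x axis) for 9 genes in the 10 libraries at 25°C, with 1 point per library. Lines and bands give the mean and SD of the 5 libraries of each window. Ldh, Sirup, Pfk, Thor, path and RpL5 lie higher at CT39 to CT51 and kdn, Prosbeta4 and Cdk1 lower, with no overlap of the windows in any of the 9.

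In the mitochondrial lists more genes were called lower than higher, and many were not called. Of 17 citric acid cycle genes 9 were called lower and none higher, at a median of -0.15, with 8 not called and with 5 lower without CT24. Of 69 subunits of the respiratory chain and ATP synthase 39 were called lower and none higher, at a median of -0.23, with 30 not called. Of 72 mitochondrial ribosomal proteins 34 were lower and 2 higher, at a median of -0.18, with 36 not called. The largest fall among them was that of kdn, citrate synthase, the entry enzyme of the cycle (dm3, chromosome X, 6244662 to 6255356). kdn had 134, 113, 103, 92.0 and 83.8 FPKM at CT39, CT42, CT45, CT48 and CT51, against 184, 167, 165, 151 and 143 FPKM at CT24, CT27, CT30, CT33 and CT36. Its decline was unbroken from CT24 to CT51, and the windows did not overlap, a log2 difference of -0.63 ± 0.11 (SE) with an adjusted p = 0.00568. The locus of the fumarases Fum1 and Fum2, which overlaps that of ND-ASHI, changed by -0.44 ± 0.085, Idh3a, an isocitrate dehydrogenase subunit, by -0.21 ± 0.047 and SdhC, a membrane subunit of complex II, by -0.20 ± 0.070. The call of SdhC was lost without any 1 of CT24, CT27, CT30, CT42, CT48 and CT51.

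Among the subunits of the respiratory chain and ATP synthase the steepest declines were those of ATPsyndelta, -0.42 ± 0.11, COX7C, a subunit of cytochrome c oxidase, -0.41 ± 0.13, ATPsynO, -0.40 ± 0.10, and the complex I subunit ND-ASHI, -0.38 ± 0.087. ATPsyndelta had 490.3, 390.4, 392, 329 and 314 FPKM at CT39, CT42, CT45, CT48 and CT51, against 530.5, 525, 557, 480.2 and 441 FPKM at CT24, CT27, CT30, CT33 and CT36. Its value at CT39 lay above those of CT33 and CT36, so the windows overlapped, and in the list only 1 of 69 subunits fell without overlap. The call of COX7C was lost without any 1 of CT24, CT27, CT30, CT48 and CT51. The count of 39 fell to 15 without CT24, 20 without CT27, 18 without CT30, 25 without CT42, 14 without CT48 and 19 without CT51, while the median lay between -0.28 and -0.18 in the 10 fits that each left out 1 library. Of the mitochondrial ribosomal proteins, mRpL20 changed by -0.48 ± 0.12 and mRpL14 by -0.44 ± 0.095. Their count of 34 came to 19 without CT24, CT27 or CT48 and 20 without CT30 or CT51. Many of these genes are short, and short loci as a class varied between libraries. The 351 tested loci that span under 1000 bp had a median deviation of 0.10 at CT30, 0.04 at CT39 and 0.06 at CT45, but -0.05 at CT42 and -0.11 at CT48, and their median difference between the windows was -0.05. The part of this in the mitochondrial lists was not tested.

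The machinery of protein synthesis split. Of 87 cytosolic ribosomal protein loci 60 were called higher and 3 lower, at a median of 0.13, which is a small but widely shared difference. The 3 lower ones were RpS15Ab, RpS19b and RpLP0-like, which are paralogues or relatives of ribosomal proteins of low abundance, at means of 101, 9.63 and 112 FPKM at CT39 to CT51. RpS15Ab shares sequence with its abundant copy, so its value is uncertain. The call of RpS19b was lost without any 1 of CT24, CT30, CT39, CT42, CT48 and CT51. The 5 most abundant loci called higher without overlap were all ribosomal proteins of the cytosol. RpL5, a subunit that binds 5S rRNA, had 8229.5, 8579.6, 9161, 9209.7 and 9004 FPKM at CT39, CT42, CT45, CT48 and CT51, against 6659.8, 7021, 7816, 7306 and 7417 FPKM at CT24, CT27, CT30, CT33 and CT36. The later window lay above the earlier one at every time point, a log2 difference of 0.29 ± 0.050 (SE) with an adjusted p = 0.00565. RpL29, RpS7, RpLP2 and RpS29 changed by 0.24 ± 0.055, 0.12 ± 0.035, 0.18 ± 0.045 and 0.19 ± 0.045. Within the 10 libraries the group was highest at CT45, with 83 of 87 up from CT42 and 83 of 87 down to CT48. Loci that span under 1000 bp did the same, with 282 of 351 up and 300 of 351 down, as did 61 and 70 of the 72 mitochondrial ribosomal proteins, and the part of this in the ribosomal protein calls was not tested. Without CT45, 48 were called higher, without CT24, 36 were, and without CT48, 39 were.

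Genes for making ribosomes were mostly called lower. Of 20 ribosome biogenesis genes 16 were called lower, at a median of -0.28. nop5, a core protein of box C/D snoRNPs, had 212, 195, 181, 167 and 145 FPKM at CT39, CT42, CT45, CT48 and CT51, against 278, 255, 250.5, 223 and 219.6 FPKM at CT24, CT27, CT30, CT33 and CT36. Its values declined at every step and the windows did not overlap, a log2 difference of -0.45 ± 0.099 (SE) with an adjusted p = 0.00804. vito, a nucleolar protein of rRNA processing, changed by -0.51 ± 0.12 and the helicase pit by -0.45 ± 0.089. The 1 gene called higher was Non1, a GTPase of 60S subunit assembly, at 0.54 ± 0.092 and a mean of 581 ± 62.0 FPKM at CT39 to CT51 and 401 ± 47.6 FPKM at CT24 to CT36. Of 44 translation factors 20 were higher and 7 lower. The largest change among them was the fall of eEF1delta, an exchange factor of elongation, with a log2 difference of -0.46 ± 0.099. The counts for translation factors fell to 11 higher and 4 lower without CT24, 12 and 5 without CT27, 12 and 3 without CT48, and 10 and 4 without CT51.

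Genes of amino acid handling moved in both directions, with more of them higher. Of 20 aminoacyl-tRNA synthetases 11 were called higher and 5 lower, at a median of 0.17, with 3 lower without any 1 of CT24, CT27, CT45, CT48 and CT51. AsnRS, ValRS and IleRS changed by 0.58 ± 0.10, 0.46 ± 0.072 and 0.43 ± 0.072, and alpha-PheRS by -0.42 ± 0.080. Of 13 genes of serine and one-carbon metabolism and ATF4 targets 6 were higher and 4 lower, with log2 differences from -0.36 to 1.37. The members described here are higher ones, and the 4 lower ones are not named. CG6287, a listed member under the filter, averaged 0.546 FPKM at CT39 to CT51 and 1.49 FPKM at CT24 to CT36. AsnS, asparagine synthetase, a known ATF4 target, had 66.6, 61.0, 68.8, 67.9 and 69.5 FPKM over CT39 to CT51, against 34.8, 50.5, 53.2, 38.2 and 44.0 FPKM over CT24 to CT36, a log2 difference of 0.60 ± 0.10 (SE) with an adjusted p = 0.00565. crc, which encodes ATF4, averaged 793 ± 71.2 FPKM at CT39 to CT51 and 563 ± 41.5 FPKM at CT24 to CT36, a difference of 0.49 ± 0.069. Of 8 listed amino acid transporters 4 passed the filter, and of these path, JhI-21 and mnd were called higher and gb lower. The 4 under the filter were slif, sbm, Eaat1 and polyph. Of these slif averaged 0.932 FPKM at CT39 to CT51 and 0.941 FPKM at CT24 to CT36. path, an SLC36-type transporter that promotes growth, had 436, 368, 426, 482 and 551 FPKM at CT39, CT42, CT45, CT48 and CT51, against 128, 244, 273, 177 and 223 FPKM at CT24, CT27, CT30, CT33 and CT36. The lowest value of the later window, at CT42, was 368 FPKM and the highest of the earlier one, at CT30, was 273 FPKM, a log2 difference of 1.15 ± 0.19 (SE) with an adjusted p = 0.0056. JhI-21, a light subunit of heteromeric transporters, had 278, 278, 325, 351 and 399 FPKM over CT39 to CT51, against 98.9, 174, 198, 139 and 171 FPKM over CT24 to CT36, a log2 difference of 1.08 ± 0.17 (SE) with an adjusted p = 0.0056. mnd, a related subunit, changed by 0.21 ± 0.056 and gb, genderblind, a cystine/glutamate exchanger subunit, by -0.34 ± 0.073. Unlike the glycolytic enzymes, path and JhI-21 dipped between CT30 and CT33, and AsnRS and AsnS dipped there as well.

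Among nutrient signalling genes, 6 of 17 were called higher and 4 lower, against 17.2% and 22.6% over all loci. The median of the list was near 0, at 0.01, while single members moved far. Thor had 1613, 1411, 1723, 1934 and 2194 FPKM at CT39, CT42, CT45, CT48 and CT51, against 302, 773, 849, 767 and 946 FPKM at CT24, CT27, CT30, CT33 and CT36. CT24 was the lowest library by a wide margin, and all 5 values of the later window exceeded all 5 of the earlier one, a log2 difference of 1.37 ± 0.27 (SE) with an adjusted p = 0.00623. ImpL2, a secreted protein that binds insulin-like peptides, had 602, 533, 649, 791 and 953 FPKM over CT39 to CT51, against 167, 321, 349.6, 302 and 341 FPKM over CT24 to CT36, a log2 difference of 1.27 ± 0.21 (SE) with an adjusted p = 0.0056. It is also one of the listed ecdysone-response genes. Of these 1 of 10 was higher and 2 were lower, against 17.2% and 22.6% over all loci. Ilp6, an insulin-like peptide, went the other way, at -0.32 ± 0.064. REPTOR-BP, a partner of the TOR-repressed factor REPTOR, changed by 0.31 ± 0.066. Of 17 autophagy genes 6 were called higher and none lower, among them Atg8a, 0.33 ± 0.063, Atg14, 0.26 ± 0.040, and the cargo receptor ref(2)P, 0.25 ± 0.054. Of 17 subunits of the vacuolar ATPase, which acidifies lysosomes, 10 were higher and none lower, with the largest change in Vha68-1 at 0.37 ± 0.072.

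In the lists of cell cycle genes every called member was lower. Of 30 DNA replication genes 27 were called lower and none higher, at a median of -0.25, with 3 not called. Of 38 genes of mitosis and chromosome segregation 21 were lower and none higher, at -0.13, with 17 not called. Of 10 genes of G1 and E2F 6 were lower and none higher, at -0.19, with 4 not called. The largest fall among them was that of stg, the Cdc25 phosphatase that triggers mitosis (dm3, chromosome 3R, 25077548 to 25081522). stg had 245, 211, 206, 177 and 180.1 FPKM at CT39, CT42, CT45, CT48 and CT51, against 364, 304, 292, 271 and 263 FPKM at CT24, CT27, CT30, CT33 and CT36. The windows did not overlap, a log2 difference of -0.55 ± 0.10 (SE) with an adjusted p = 0.00596. Cdk1, the mitotic kinase that stg activates, had 67.6, 64.9, 61.4, 55.6 and 51.6 FPKM over CT39 to CT51, against 97.1, 89.0, 87.1, 74.9 and 74.9 FPKM over CT24 to CT36, a log2 difference of -0.48 ± 0.090 (SE) with an adjusted p = 0.00596. The kinesin ncd changed by -0.25 ± 0.059 and the centromeric histone cid by -0.25 ± 0.044. In the replication group Prim2, a primase subunit, changed by -0.47 ± 0.064, the helicase subunits Mcm3 and Mcm7 by -0.40 ± 0.073 and -0.38 ± 0.079, and Orc2, of the origin recognition complex, by -0.38 ± 0.088. CycE and its kinase Cdk2 changed by -0.25 ± 0.038 and -0.24 ± 0.074. Rbf and dap, which hold back S phase entry, changed by -0.31 ± 0.057 and -0.30 ± 0.076. Thus activators and inhibitors of S phase entry moved the same way. The call of Cdk2 was lost without any 1 of CT24, CT30, CT42, CT48 and CT51.

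**Figure D3:**
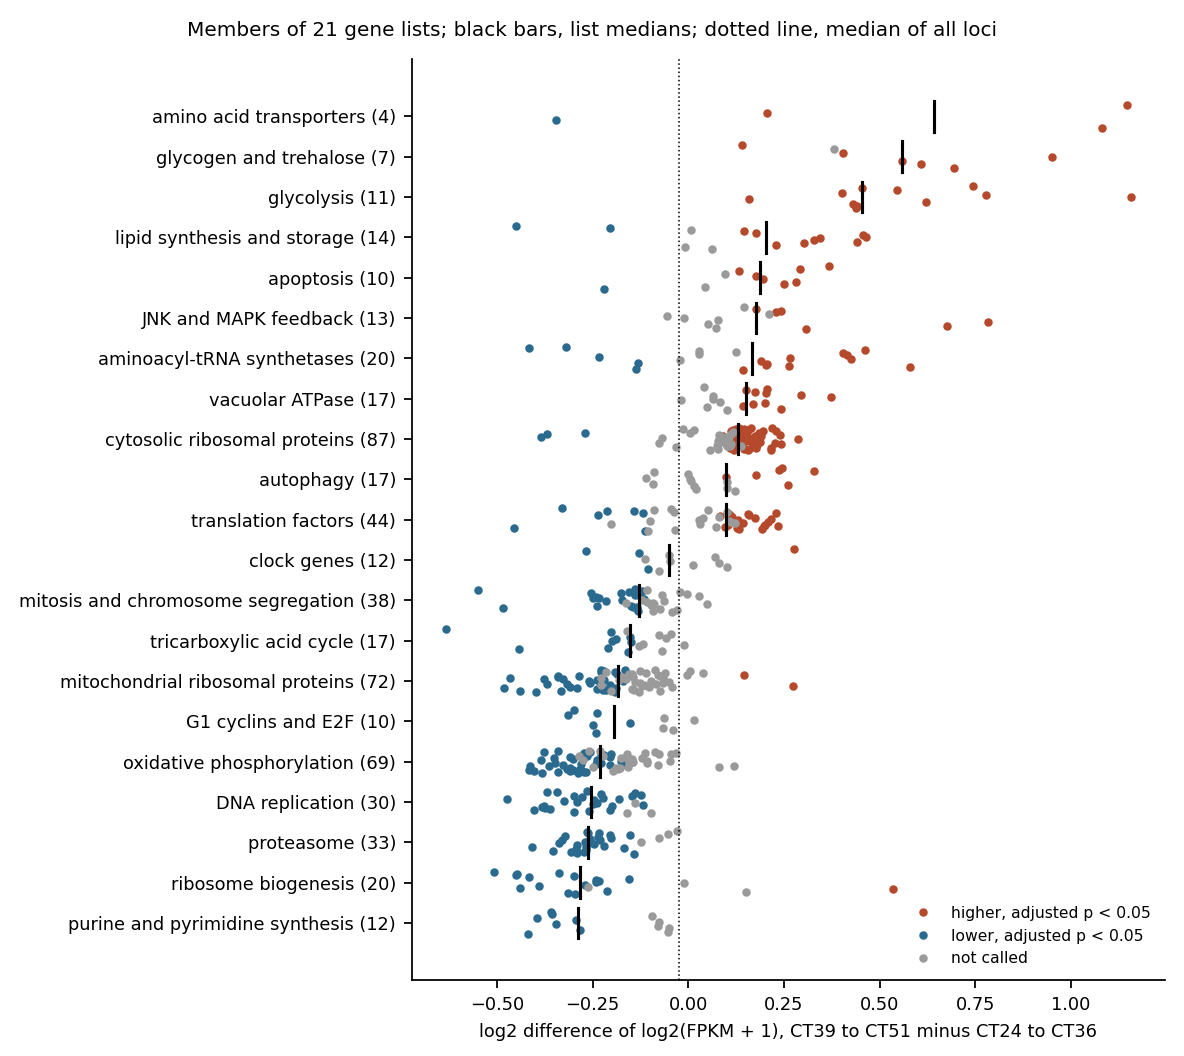
Log2 difference of log2(FPKM + 1), CT39 to CT51 minus CT24 to CT36 (x axis), for the tested members of 21 gene lists (rows, number of loci in brackets). Each point is a locus, coloured by its call, black bars are list medians and the dotted line is the median of all 6988 loci at -0.02. The 11 glycolytic enzymes all lie to the right of it, and 29 of 33 proteasome subunits and 27 of 30 replication genes are called lower.

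Of 33 proteasome subunit loci 29 were called lower and none higher, at a median of -0.26, and in 21 the windows did not overlap. Prosbeta4, a subunit of the core, had 239.5, 226, 229.7, 212 and 197 FPKM at CT39, CT42, CT45, CT48 and CT51, against 335, 309.8, 309.8, 262 and 255 FPKM at CT24, CT27, CT30, CT33 and CT36. All 5 values of the later window lay below all 5 of the earlier one, a log2 difference of -0.41 ± 0.081 (SE) with an adjusted p = 0.00623. Prosalpha5, Rpn10 and Rpn3 changed by -0.35 ± 0.079, -0.34 ± 0.066 and -0.33 ± 0.064. Of 12 genes of purine and pyrimidine synthesis 7 were lower and none higher, at a median of -0.29. awd, the nucleoside diphosphate kinase and the most abundant locus called lower without overlap, had 5558, 5289.8, 5754, 4603 and 4130.2 FPKM over CT39 to CT51, against 7269, 6770.4, 6941, 6238 and 5963 FPKM over CT24 to CT36, a log2 difference of -0.40 ± 0.092 (SE) with an adjusted p = 0.0093. Adsl, adenylosuccinate lyase, changed by -0.42 ± 0.082, r, which encodes the multifunctional enzyme that starts pyrimidine synthesis, by -0.36 ± 0.057, and r-l, its partner at the end of that path, by -0.36 ± 0.078.

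Of 15 chaperone genes 5 were called lower and 1 higher. Hsp83, the fly Hsp90, averaged 800.3 ± 72.8 FPKM at CT39 to CT51 and 1107 ± 156 FPKM at CT24 to CT36, a log2 difference of -0.46 ± 0.093 (SE) with an adjusted p = 0.00646. Hsc70-4, the constitutive Hsp70, changed by -0.21 ± 0.056 and the co-chaperone Droj2 by -0.29 ± 0.062, and the 1 higher gene was Hsf, the heat shock factor. The 5 lower genes came to 3 without any 1 of CT24, CT27, CT30, CT48 and CT51 and to 8 without CT39, and no gene was called higher in those first 5 fits. Of the other abundant loci that fell, Act42A, a cytoplasmic actin, changed by -0.33 ± 0.071, Df31, a chromatin-binding protein, by -0.18 ± 0.048, and Bacc by -0.16 ± 0.039. Of 17 antioxidant genes 6 were lower and 2 higher, with the mitochondrial peroxiredoxin Prx3 at -0.52 ± 0.13 and the glutathione transferase GstD1 at -0.41 ± 0.089. Of 14 lipid genes 9 were higher and 2 lower, with the desaturase locus Desat1, joined with vrs, at 0.44 ± 0.080, the lipid droplet protein Lsd-1 at 0.47 ± 0.076, the joined locus of Pcyt1 and Pcyt2, of phospholipid synthesis, at 0.46 ± 0.099, and mdy, which makes triacylglycerol, at -0.45 ± 0.096. Of 11 genes for iron and metals 3 were higher and none lower. Fer2LCH and Fer1HCH, the ferritin chains, whose loci overlap, changed by 0.48 ± 0.084 and 0.23 ± 0.050.

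**Figure D4:**
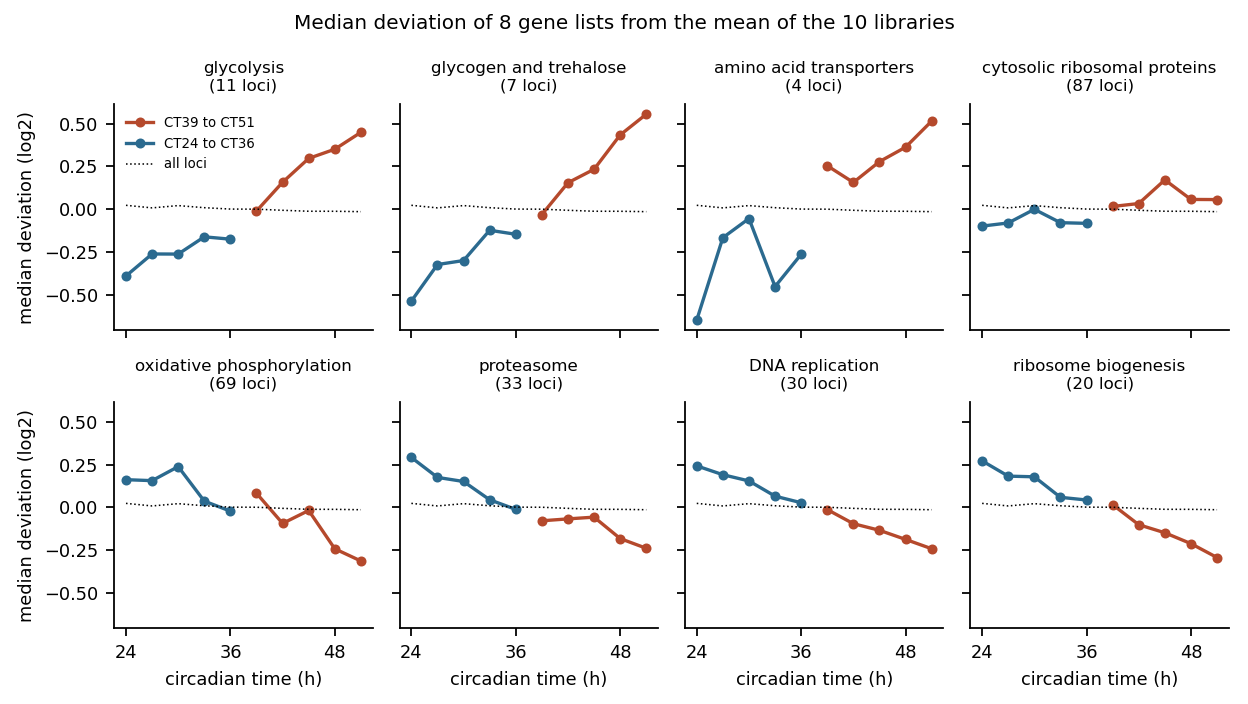
Median deviation of log2(FPKM + 1) from the mean of the 10 libraries (y axis) against circadian time (x axis) for the members of 8 gene lists, with CT39 to CT51 and CT24 to CT36 in separate colours and the median of all tested loci dotted. Glycolysis runs from -0.39 at CT24 to 0.45 at CT51, the proteasome from 0.29 to -0.24 and DNA replication from 0.24 to -0.24, while the amino acid transporters dip to -0.45 at CT33.

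Of 13 genes of JNK and MAPK feedback 6 were called higher and none lower, among them aos, a secreted inhibitor of the EGF receptor, with 325, 442, 455, 494 and 523 FPKM over CT39 to CT51, against 227, 199, 218, 315 and 358 FPKM over CT24 to CT36, a log2 difference of 0.78 ± 0.17 (SE) with an adjusted p = 0.00815. The matrix metalloproteinase Mmp1 changed by 0.68 ± 0.12 and the papilin gene Ppn by 0.44 ± 0.088, whereas 10 of the 13 extracellular matrix genes were not called. Of 10 apoptosis genes 7 were higher and 1 lower. They included both the inducer rpr, 0.37 ± 0.13, and the inhibitor Diap1, 0.28 ± 0.066. The call of rpr was lost without any 1 of CT27, CT30, CT33, CT39, CT45, CT48 and CT51, and the count of 7 came to 4 without CT27, CT48 or CT51. Of 8 antimicrobial peptide genes 2 were higher and 1 lower, with CecA1 at 0.46 ± 0.14 and DptB at -0.49 ± 0.17. Both calls were lost without any 1 of CT24, CT27, CT45, CT48 and CT51, and that of DptB also without CT30 or CT42. PGRP-SA, a receptor of the Toll pathway, changed by 0.44 ± 0.093 and the NF-kappaB factor Dif by -0.34 ± 0.069, and of 16 Toll and Imd genes 2 were higher and 3 lower. The counts for these immune lists are close to the shares over all loci (17.2% higher and 22.6% lower).

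Of 16 listed clock genes, 12 passed the filter. Clk, per, tim and cry did not, and their highest values in any of the 10 libraries were 0.0864, 0.169, 0.0484 and 0.0191 FPKM. Of the 12, 1 was called higher and 3 lower, at a median of -0.05, against 17.2% higher and 22.6% lower over all loci. vri, a repressor of Clk in the fly clock, had 2.09, 1.70, 1.70, 2.06 and 2.67 FPKM at CT39, CT42, CT45, CT48 and CT51, against 1.35, 1.80, 1.48, 1.54 and 1.35 FPKM at CT24, CT27, CT30, CT33 and CT36. The value at CT27 lay above those of CT42 and CT45, so the windows overlapped, a log2 difference of 0.28 ± 0.084 (SE) with an adjusted p = 0.0244. The call of vri was lost without CT24 or CT48. Pdp1, an activator of Clk, had a log2 difference of 0.10 ± 0.051, cwo one of 0.01 ± 0.048 and cyc, the dimer partner of Clk, one of 0.08 ± 0.040, none of which was called. Among genes that act on clock proteins, tws, a phosphatase regulatory subunit, changed by -0.27 ± 0.053, CkIIbeta, of casein kinase 2, by -0.10 ± 0.029, and slmb, a ubiquitin ligase subunit, by -0.13 ± 0.045. CkIIbeta lost its call without CT48, and slmb without any 1 of CT24, CT27, CT30, CT33, CT45, CT48 and CT51. CkIIalpha, dco, mts, jet and the sgg locus lay between -0.11 and 0.07 and were not called.

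Outside the lists, MFS3, a transporter of the major facilitator family whose locus is joined with lncRNA:CR45717, had 7.85, 8.86, 14.5, 25.0 and 47.0 FPKM over CT39 to CT51, against 1.69, 3.72, 4.24, 3.75 and 3.68 FPKM over CT24 to CT36, a log2 difference of 2.03 ± 0.41 (SE) with an adjusted p = 0.00646. Its climb was concentrated at the end, between CT45 and CT51. Dgp-1, which encodes a GTP-binding protein, had 74.4, 59.5, 77.2, 93.0 and 116 FPKM over CT39 to CT51, against 19.6, 43.7, 45.3, 28.4 and 34.5 FPKM over CT24 to CT36, and Sgsh, a lysosomal sulphatase, had 20.0, 14.5, 17.7, 19.0 and 21.9 FPKM over CT39 to CT51, against 4.78, 9.24, 11.9, 6.72 and 7.51 FPKM over CT24 to CT36. Both dipped between CT30 and CT33 and lay higher at every time point of the later window, with log2 differences of 1.29 ± 0.23 and 1.16 ± 0.19. Jhbp1, named for juvenile hormone binding, changed by 1.15 ± 0.16, and the locus of snoRNA:Me28S-A982b by 1.25 ± 0.32. Mature snoRNAs lack a polyA tail, and the value of this locus in polyA RNA is uncertain.

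The largest non-overlapping declines were smaller than the largest increases. CG16762 had 7.91, 6.99, 6.85, 5.72 and 3.82 FPKM over CT39 to CT51, against 11.8, 11.6, 9.77, 9.67 and 11.9 FPKM over CT24 to CT36, a log2 difference of -0.74 ± 0.14 (SE) with an adjusted p = 0.00607. Ak3, an adenylate kinase, had 13.0, 12.2, 10.2, 9.25 and 9.27 FPKM over CT39 to CT51, against 23.2, 17.2, 16.4, 16.1 and 15.7 FPKM over CT24 to CT36, and Obp99a, an odorant-binding protein, had 23.4, 23.5, 20.0, 18.7 and 20.2 FPKM over CT39 to CT51, against 43.4, 36.6, 36.0, 29.4 and 25.1 FPKM over CT24 to CT36. Their log2 differences were -0.67 ± 0.12 and -0.64 ± 0.13. fbp, fructose 1,6-bisphosphatase, which opposes Pfk in gluconeogenesis, had 6.78, 5.12, 5.26, 4.07 and 4.09 FPKM over CT39 to CT51, against 9.73, 7.98, 8.12, 8.09 and 7.91 FPKM over CT24 to CT36, a log2 difference of -0.64 ± 0.11 (SE) with an adjusted p = 0.00565. Thus Pfk lay higher and fbp lower in the later window. The locus of CG11089 and CG31381, CG4733, SP1029, gas, Jheh1, CG34430 and the locus of robo2 with lncRNA:CR44898 changed by -0.64 ± 0.16, -0.63 ± 0.092, -0.62 ± 0.095, -0.62 ± 0.10, -0.60 ± 0.13, -0.56 ± 0.12 and -0.59 ± 0.096. Jheh1, a juvenile hormone epoxide hydrolase, kept within 69.4 to 73.9 FPKM from CT24 to CT36 and declined to 34.9 FPKM by CT51.

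A few loci differed between the windows with little drift inside them. The 3 described here were chosen after their values were seen, from the 8 loci with the lowest p, for this course, and others of the 8 climbed through both windows. CG42846 had the lowest p of all (dm3, chromosome 3L, 230971 to 231604), with 10.4, 10.2, 9.93, 11.5 and 11.7 FPKM at CT39 to CT51, against 6.34, 5.93, 5.74, 5.45 and 6.05 FPKM at CT24 to CT36. Its earlier window did not climb and the windows did not overlap, a log2 difference of 0.76 ± 0.052 (SE) with an adjusted p = 9.1e-05. It was also the 1 locus called with only the 6 libraries next to the boundary. CG32037 had 3.49, 3.11, 3.53, 3.46 and 3.57 FPKM at CT39 to CT51, against 2.17, 2.30, 2.27, 2.08 and 2.60 FPKM at CT24 to CT36, and CG10581 had 20.5, 20.9, 19.6, 22.8 and 22.8 FPKM at CT39 to CT51, against 12.9, 13.9, 16.5, 14.4 and 14.4 FPKM at CT24 to CT36. Their log2 differences were 0.43 ± 0.048 and 0.53 ± 0.063 (SE). At the other extreme, 2 loci were called lower by more than 2-fold although the windows overlapped. Notum, joined with mir-4941, held 7.18 to 8.09 FPKM at CT39 to CT51 and 6.96 to 49.2 FPKM at CT24 to CT36, and klar, joined with a small non-coding RNA gene, held 35.0 to 48.5 FPKM at CT39 to CT51 and 28.8 to 1193 FPKM at CT24 to CT36. The call of the klar locus was lost without any 1 of the libraries other than CT24 and CT33.

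The filter decided the edge of the set. kon, just inside, had a lowest value of 0.904 FPKM, and CG8620, just outside, one of 0.898 FPKM. Of the 8875 loci not tested, 2757 were listed at 0 in all 10 libraries, 106 had at least 0.9 FPKM in every library of CT39 to CT51 only and 89 in every library of CT24 to CT36 only. In 10 loci all 5 values of the later window were at or above 0.9 FPKM and all 5 of the earlier one below it, and in 2 loci the reverse held. Of these 2, CG6287, phosphoglycerate dehydrogenase, which starts serine synthesis, averaged 0.546 FPKM at CT39 to CT51 and 1.49 FPKM at CT24 to CT36, and gukh averaged 0.720 FPKM at CT39 to CT51 and 1.06 FPKM at CT24 to CT36.

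The same hours at 28°C gave few calls. That course used rRNA-depleted RNA at low coverage, its labels name no medium change, and 2421 loci passed the filter in its 10 libraries. Esyt2 and Pvf1, a ligand of the PDGF/VEGF-type receptor, were called higher (0.0826%), and 266 loci had an unadjusted p under 0.05. No locus was called higher without any 1 of CT27, CT30, CT33, CT36, CT39, CT42, CT45 and CT48. The median SE of a log2 difference was 0.41 there and 0.052 at 25°C, so that differences of the median size called at 25°C were not detectable at 28°C. Of 548 loci called higher at 25°C and tested at 28°C, 341 lay above 0, with a median of 0.19, and of 593 called lower 239 did, with a median of -0.15. Of 1266 loci not called at 25°C, 739 lay above 0, with a median of 0.12. Of all 2407 loci tested at both temperatures, 1319 lay above 0, with a median of 0.07. The 11 glycolytic enzymes had a median of -0.13 at 28°C, with 5 above 0. Other lists went the same way as at 25°C or the other way. Of 83 cytosolic ribosomal proteins 81 lay above 0, at a median of 0.39. Of 16 ribosome biogenesis genes 2 did, at -0.62, and of 10 DNA replication genes 3, at -0.63. Of 15 citric acid cycle genes, however, 12 lay above 0, at 0.42, and of 9 mitochondrial ribosomal proteins 7, at 0.67. The difference between the temperatures was not tested.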

How the data were processed

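RNA-seq was analysed for the 10 libraries at 25°C taken from CT24 to CT51, with the 10 libraries of the same hours at 28°C beside them. The values are FPKM per locus as deposited. The authors aligned reads to dm3 with TopHat, assembled them on RefSeq genes and normalised them with Cuffnorm, so that a rise of abundant transcripts lowers the FPKM of others. Their methods describe lysis in triplicate, but 1 library per time point was used here. Symbols were matched through RefSeq accessions for 99.7% of the tested loci, and 387 loci join several genes.

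Loci with at least 0.9 FPKM in each of the 10 libraries were tested with limma 3.58.1 in R 4.3.3 on log2(FPKM + 1), which understates changes of low loci. The 5 time points of a window served as replicates, and p-values were adjusted by the Benjamini-Hochberg method over all loci tested at a temperature. The procedure was tested on simulated data with independent noise in each library and no drift within windows. The use of drifting time points as replicates was therefore not tested. Tables and plots were made in Python 3.11.15 with pandas 2.3.3, NumPy 2.4.6 and Matplotlib 3.10.9. Among called loci whose windows did not overlap, the 12 with the largest difference and the 5 with the highest mean in each direction were candidates for naming. Up to 4 called members of each gene list and the clock genes whatever their call were added. Not all of these 174 loci are described. Lists left out include endoplasmic reticulum folding and stress, JAK/STAT, adenosine and nucleosides, and histones. Others are named as chosen after their values were seen or as marker and list members. The gene lists and the comparison itself were chosen with earlier results of these data known. Alternatives were a pseudocount of 0.1, other filters, median-of-ratios scaling, a variance trend, a time covariate, the libraries at the boundary, matched hours of the day and leaving out each library.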

Additional observations from a re-analysis of the deposited data

Results flagged for a closer look

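Of 270 groups of 5 libraries examined for 135 of the named genes, 13 held a library far from the other 4, and chance flags about 1 in 20 groups. CT24 was the lowest library of its window in 3 genes, with MFS3 at 1.69 FPKM against a next value of 3.68 FPKM, Thor at 302 FPKM against 767 FPKM and ImpL2 at 167 FPKM against 302 FPKM. It was the highest in 3 others, with fbp at 9.73 FPKM against 8.12 FPKM, Ak3 at 23.2 FPKM against 17.2 FPKM and CkIIalpha at 212 FPKM against 204 FPKM. In the rest of the earlier window, REPTOR-BP was low at CT27, at 65.9 FPKM against 74.0 FPKM, and CecA1 was high at CT33, at 114 FPKM against 99.6 FPKM. In the later window, RpLP2 and RpS7 stood highest at CT45, at 10715 and 12983 FPKM, DptB was high at CT39, at 10.4 FPKM, and CG32037 and Atg14 were low at CT42, at 3.11 and 38.4 FPKM.

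Dif and Obp99a were lower at CT39 to CT51 at 25°C and lay the other way at 28°C without overlap. The log2 difference at 28°C was 2.95 for Dif and 4.50 for Obp99a. Both were under the filter there, with values of 0 in some libraries of CT24 to CT36, and the difference between the temperatures was not tested.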

How the results depend on the processing

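With a line in time as a covariate 0 loci were called at 25°C, 0 higher and 0 lower, with 377 at an unadjusted p under 0.05 by limma, and with the 6 libraries at the boundary 1 was called, 1 higher and 0 lower. The other alternatives called between 2480 loci without a filter and 3285 of 7089 at the same hours 1 day apart. That fit set only CT48 and CT51 against CT24 and CT27. Under median-of-ratios scaling 1384 were higher and 1311 lower. Leaving out 1 library gave 1841 to 3159 calls at 25°C, with 838 to 1359 higher and 1003 to 1800 lower, and 0 to 3 calls at 28°C, with 0 to 2 higher and 0 to 2 lower. A filter on the mean left 1 call at 28°C, 1 higher. Of 135 named genes 127 were called, and 114 were called under every left-out library. Some genes named in passing, among them Hsf, are not among these 135. With the time covariate 53 of the 135 changed sign, none past the threshold, and the lowest adjusted p by limma of any of the 135 was 0.297. The log2 differences, negative for loci otherwise higher, were Sirup -0.40, CG9521 -0.23, scyl -0.19, Ldh -0.15, CecA1 -0.11, Vhl -0.096, aos -0.090, snoRNA:Me28S-A982b -0.081, Glys -0.059, Gbs-76A -0.053, Pcyt1/Pcyt2 -0.043, Diap1 -0.039, brp -0.038, Ppn -0.024, AGBE -0.023, Glyp -0.021, moody -0.019, Pgi -0.0046 and Gapdh2 -1.8e-05. Those positive for loci otherwise lower were DptB 0.33, COX7C 0.24, CG11089/CG31381 0.18, mRpL20 0.17, RpLP0-like 0.15, ATPsyndelta 0.13, vito 0.13, Prx3 0.13, ATPsynO 0.10, nop5 0.094, dap 0.081, Cdk2 0.073, eEF1delta 0.073, Orc2 0.067, zpg 0.065, r-l 0.059, ND-ASHI 0.049, Mcm7 0.046, awd 0.040, pit 0.034, SdhC 0.032, Droj2 0.029, mRpL14 0.029, Prosalpha5 0.026, Hsp83 0.025, Hsc70-4 0.024, ncd 0.017, Adsl 0.011, Prosbeta4 0.011, stg 0.010, Cdk1 0.0091, Ilp6 0.0042, GstD1 0.0037 and Idh3a 0.0032. None of the 135 changed sign under any other alternative run.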

Other observations

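Within the loci called higher, 2 courses were seen around single intervals. From CT30 to CT33 Ldh, Sirup and CG9521 moved up while path, JhI-21, Dgp-1 and Sgsh moved down. Of the 1204 loci, 620 moved up from CT30 to CT33 and down from CT51 to CT54, 255 did the reverse, 147 moved up in both intervals and 182 down in both. Across these loci the changes of the 2 intervals had a Pearson r of -0.53, which is a description over loci that share the same libraries. All 11 glycolytic enzymes moved down from CT51 to CT54 (median -0.47 on the log2 scale), and the 4 amino acid transporters lay at a median deviation of 0.51 at CT51 and 0.86 at CT54.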
